A study of Arabidopsis thaliana with 10 samples.

Results

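Warm dim growth was compared with cool bright growth over 8 of the 10 arrays of an Arabidopsis leaf series. The warm dim side holds the 4 arrays of days 2 and 7, and the cool bright side holds the 4 arrays of days 8 and 12, with plant line as a term in the model. The description centres on genes whose 4 warm dim values did not overlap their 4 cool bright values. Members of gene lists are given beside them, and some of these overlapped. Of 22746 probe sets, 1877 (8.25%) were higher in warm dim growth by this measure and 1564 (6.88%) were lower.

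Each array measured total RNA from pooled leaf tissue of accession Columbia. The lines were 35S:PAP1, in which a constitutive viral promoter drives the anthocyanin regulator PAP1, and a control with the empty vector. Each line had 1 array a day. Warm dim growth was read from the series text as 30 °C by day at 150 µmol m-2 s-1, and cool bright growth as 15 °C at 440 µmol m-2 s-1. The 2 day 1 arrays, read as 22 °C at 440 µmol m-2 s-1, were left out of the comparison and are used below only as a further reading. Regime is not part of the labels, which name the day, and the label Hex was read as the empty vector. Temperature, light, plant age and order of treatment changed together, so their parts cannot be told apart. No line was repeated on a day, so days and lines stand in for replicates and p-values measure only the spread between these arrays.

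Leaves adjust their transcripts to temperature and to light at the same time. Cold induces dehydrins and other protective proteins through CBF transcription factors, warmth raises the demand for chaperones, and dim light lowers the supply of photosynthetic sugars and draws on amino acids as fuel. Bright light in the cold gives leaves more excitation energy than they can use, and enzymes of the ascorbate, glutathione and thioredoxin systems remove the oxidants that form.

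The highest correlations between arrays lay within a regime, though the ranges overlapped. Pearson's r over all probe sets was 0.968 to 0.989 among warm dim arrays, 0.949 to 0.991 among cool bright arrays and 0.927 to 0.965 between the regimes. In cool bright growth the high values were the same-day pairs, at 0.991 and 0.988. Pairs of day 8 with day 12 read 0.949 to 0.962, inside the range between the regimes. The poly-A spike controls had a median of 3.35 for 35S:PAP1 and 3.4 for the empty vector on day 7, and of 4.45 to 5.35 on the other 8. The 25S ribosomal RNA probe set was at 9.7 for 35S:PAP1 on day 2, with 4.7 to 6.7 elsewhere. Actin's 5′ minus 3′ difference was -2.5 there, with -1.5 to -1.2 elsewhere. Both sets of arrays with such readings lie in warm dim growth. Against 2198 calls on all 8 arrays, 380 were called without day 7 and 853 without 35S:PAP1 on day 2. Leaving out the empty vector day 2 array, which had no such reading, gave 670. Those fits also have fewer arrays, so the part of these readings was not tested on its own. Leaf genes were strongly present, with LHCB4.1 and LHCB4.2 at 9.6 to 13.6. The root and seed markers BAN, EXPA7 and EXPA18 read 3.3 to 4.1, and the root gene PYK10 read 4.1 to 5.1. Values at or under 4.1 were treated as dim, and a difference whose lower side reached that level is given as "at least".

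In limma, with Benjamini-Hochberg adjustment over all 22746 probe sets, 1282 probe sets (5.64%) were called higher in warm dim growth and 916 (4.03%) were called lower at an adjusted p under 0.05. Of the non-overlapping probe sets, 1182 of the 1877 higher ones and 864 of the 1564 lower ones were also called. The median difference over all probe sets was -0.025 on the log2 scale. Differences are warm dim minus cool bright on that scale throughout, with ± the standard error of the fit. A gene is said to have risen or fallen only where it was called. Non-overlap and the call come from the same arrays, so the sizes of chosen genes are descriptions. Median differences of the non-overlapping probe sets were 0.825 on the higher side and -0.80 on the lower side. The gap between the regimes was 0.1, the step of the deposited values, for 511 of the higher and 508 of the lower probe sets. It was at least 1 for 127 and 70 of them. Just outside the limit, the closest values of the regimes were equal for 886 further probe sets on the higher side and 1110 on the lower side.

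The calls leaned on single days and arrays. Without the day 2 arrays no probe set was called by limma (0 of 22746, with 3777 at an unadjusted p under 0.05), and without the day 7 arrays 380 were called. Of the genes named by size or gap, 21 on each side, 0 stayed called without day 2, and 13 and 10 without day 7. With day as a random block, 594 were called. The plot of calls by setting shows these counts beside those that left out 1 array at a time, which ranged between 581 and 2176.

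**Figure D1:**
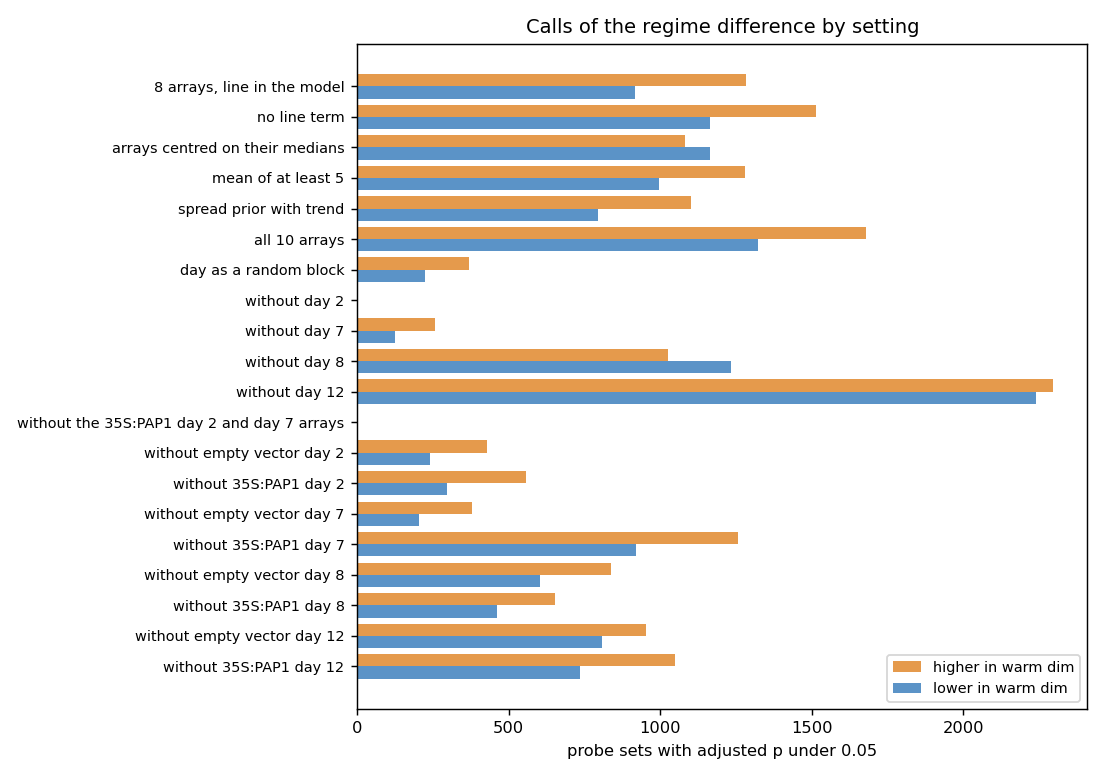
Number of probe sets called higher (orange) and lower (blue) in warm dim than in cool bright growth at an adjusted p under 0.05 in limma, for each setting. The 8-array model with line called 1282 and 916, leaving out day 2 called 0, and leaving out day 12 called 2295 and 2241.

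Cold-response genes gave the 2 largest lower differences among named genes with a symbol, COR15A and LTI30. COR15A and COR15B, chloroplast proteins that protect membranes in the cold, and the dehydrin LTI30 all fell in warm dim growth. They were the 3 members called of 8 measured in the cold-response list, with 0 called higher and a list median of -0.05. The share called lower over all probe sets was 4.03%. The other 5 members lay between -0.07 and 0.33, among them COR47, a further dehydrin, at 0.33, and COR27 at 0.07. In the order 35S:PAP1 then empty vector on the earlier day, and the same on the later day, LTI30 read 6.6, 7.2, 6.4 and 7.5 on the warm dim arrays, against 10.9, 10.8, 10.2 and 10.8 on the cool bright arrays. No array of either regime came within 2.7 of the other regime for LTI30. Its difference was -3.75 ± 0.20 (SE, adjusted p = 0.0013). COR15A read 6.5, 7.6, 9.9 and 8.7 on the warm dim arrays, against 13.5, 13.3, 11.7 and 11.4 on the cool bright arrays. The 2 day 7 arrays stood above the day 2 arrays, and day 8 stood above day 12 within cool bright growth. Its difference was -4.3 ± 0.82 (SE, adjusted p = 0.0221), and that of COR15B was -3.23 ± 0.78 (SE, adjusted p = 0.0439), with a gap of 0.1. COR15A stayed called in 3 and COR15B in 2 of the 8 fits that left out 1 array, against 8 for LTI30. Only LTI30 of the 3 stayed called with day as a random block. Lower RNA per cell and fewer cells of a type cannot be told apart in these leaf pools.

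Some enzymes of the ascorbate, glutathione and thioredoxin systems, 6 of 14 measured, fell in warm dim growth. GR1, a glutathione reductase, had the widest gap among these, and read 7.8, 7.9, 8.2 and 8.1 on the warm dim arrays, against 10.4, 10.6, 9.9 and 10.2 on the cool bright arrays. All 4 warm dim values were below all 4 cool bright values by at least 1.7, and the difference was -2.27 ± 0.17 (SE, adjusted p = 0.00268). The other glutathione reductase, GR, which serves the chloroplast and mitochondrion, fell by 1.2 ± 0.22. SAPX, the stromal ascorbate peroxidase, fell by 2.1 ± 0.34, and NTRC, a chloroplast thioredoxin reductase that uses NADPH, fell by 1.7 ± 0.17. The plastid thioredoxins THX and ty2 fell by 0.47 ± 0.10 and 0.53 ± 0.12. ATHM2, an m-type plastid thioredoxin, rose by 0.47 ± 0.10. Besides the 6 called lower, 1 of the 14 was called higher, and the list median was -0.40. Over all probe sets the shares called were 4.03% lower and 5.64% higher. Without overlap, 5 of the 14 were lower, beside 6.88% over all probe sets. A random block for day left 4 of these 7 called, and THX, ty2 and ATHM2 did not. THX and ty2 were called in 1 and ATHM2 in 2 of the 8 fits without 1 array. The list was assembled after values were seen, so its count is a description. TAPX, the thylakoid ascorbate peroxidase, was not called at 0.30 (adjusted p = 0.344). CCS, the copper chaperone of superoxide dismutase, was at 0.72 without overlap, and the f-type thioredoxin TRXF2 at 1.18. Neither was called (adjusted p = 0.0526 and 0.137).

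Some subunits of mitochondrial tricarboxylic acid cycle enzymes and some type II NAD(P)H dehydrogenases were lower in warm dim growth. In the tricarboxylic acid cycle list, 4 of 8 genes fell and 0 rose, beside 4.03% and 5.64% over all probe sets. The list median was -0.49. The 4 that fell were SDH1-1 and SDH2-1, subunits of succinate dehydrogenase, and IDH-VI and IDH-V, subunits of NAD-dependent isocitrate dehydrogenase. SDH1-1 read 7.9, 8.1, 8.5 and 8.1 on the warm dim arrays, against 10, 10, 9.6 and 9.8 on the cool bright arrays. The 35S:PAP1 day 7 array was the highest of the warm dim side and still lay 1.1 below the lowest cool bright array. Its difference was -1.7 ± 0.17 (SE, adjusted p = 0.00368). SDH2-1 fell by 1.0 ± 0.14, IDH-VI by 1.3 ± 0.20 and IDH-V by 0.68 ± 0.16. SDH2-2, a paralogue of SDH2-1, was not called at -0.30 (adjusted p = 0.289). SDH1-2, IDH-III and IDH-IV were in the dim range on all 8 arrays, so no regime difference could be read from them. Among 5 type II NAD(P)H dehydrogenases, which pass electrons to quinone without pumping protons, NDB2 fell by 1.6 ± 0.17 and NDC1 by 1.2 ± 0.18. All 5 had negative values, with a median of -0.68, but NDB4, at -0.10, was in the dim range on all 8 arrays. This list too was assembled after values were seen. With day as a random block, 2 of the 4 cycle genes and 2 of the 2 dehydrogenases stayed called. IDH-VI and IDH-V lost their calls there, and IDH-V was called in 1 of the 8 fits without 1 array. None of 15 mitochondrion-encoded genes was called in either direction by limma, and their median was 0.33.

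Genes of carbohydrate storage and transport moved in both directions. APL3, a large subunit of ADP-glucose pyrophosphorylase, the enzyme that feeds starch synthesis, read 5.0, 5.4, 6.0 and 4.9 on the warm dim arrays, against 7.5, 7.9, 7.9 and 8.0 on the cool bright arrays. The highest warm dim array, again 35S:PAP1 on day 7, was 1.5 below the lowest cool bright array, and the difference was -2.5 ± 0.26 (SE, adjusted p = 0.00423). Of 14 SWEET sugar carriers, SWEET4 fell by at least 1.93 ± 0.32 and SWEET2 by 1.4 ± 0.31, whereas SWEET16, a carrier of the vacuolar membrane, rose by 0.97 ± 0.19. The day block left 0 of these 3 called, and over all probe sets 4.03% were called lower and 5.64% higher. SWEET13, a carrier used in phloem loading, had a difference of -2.25 without overlap but was not called (adjusted p = 0.0609). SAG29, also known as SWEET15 and named for its rise in ageing leaves, read 4.7, 6.1, 4.6 and 4.5 on the warm dim arrays, against 7.3, 7.3, 6.8 and 7.8 on the cool bright arrays. Its values separated by 0.7, with a difference of -2.33 ± 0.33 (SE, adjusted p = 0.0103). SAG29 is counted outside the 14 above, and it stayed called with day as a random block. None of the 4 genes of a separate starch list was called in limma, and their median was 0.12.

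**Figure D2:**
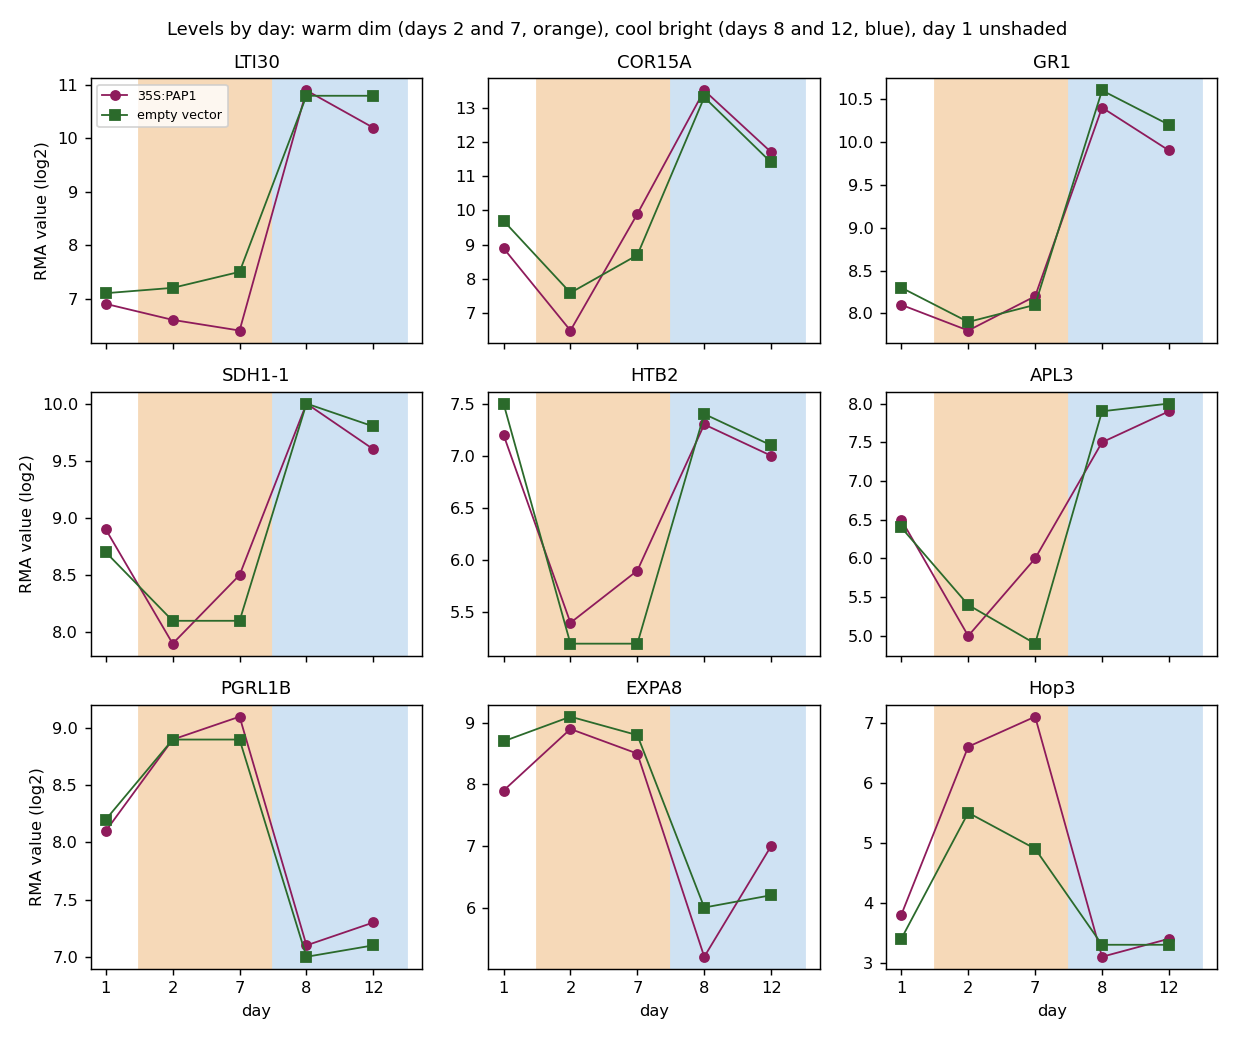
RMA values (log2) by day for 9 genes in 35S:PAP1 (circles) and the empty vector (squares), with warm dim days 2 and 7 shaded orange, cool bright days 8 and 12 shaded blue, and day 1 unshaded. LTI30, COR15A, GR1, SDH1-1, HTB2 and APL3 were lower on every warm dim array than on any cool bright array, and PGRL1B, EXPA8 and Hop3 were higher.

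Some genes of DNA replication and chromatin were lower in warm dim leaves. HTB2, a histone H2B gene, read 5.4, 5.2, 5.9 and 5.2 on the warm dim arrays, against 7.3, 7.4, 7.0 and 7.1 on the cool bright arrays. Day 1 stood with the cool bright arrays at 7.2 and 7.5 (35S:PAP1 then empty vector). The difference between regimes was -1.77 ± 0.18 (SE, adjusted p = 0.00403). PRL, the MCM7 subunit of the replicative helicase, fell by 1.1 ± 0.26, POLA3, a DNA polymerase alpha subunit, by 1.02 ± 0.16, and the histone chaperone ASF1B by 0.93 ± 0.17. These were 3 of 4 members of a list assembled after values were seen, beside 4.03% called lower over all probe sets. Only POLA3 of the 3 stayed called with the day block, and PRL was called in 2 of the 8 fits without 1 array. HIS1-3, a linker histone known from water stress, went the other way at 1.82 without overlap but was not called (adjusted p = 0.105). Of 5 histone genes 1 was called lower and 0 higher, with a median of 0.12.

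Several further genes of known function fell. BETA-VPE, a vacuolar processing enzyme, a protease that matures vacuolar proteins, read 3.9, 4.6, 5.3 and 4.6 on the warm dim arrays, against 8.7, 8.7, 7.5 and 7.4 on the cool bright arrays. It fell by at least 3.48 ± 0.42 (SE, adjusted p = 0.00624). MT1C, a metal-binding metallothionein, fell by 2.42 ± 0.37, and RR16, a type-A response regulator of cytokinin signalling, by at least 2.3 ± 0.31. EXPA9, an alpha-expansin, fell by 2.48 ± 0.40. It lost its call with day as a random block and was called in 6 of the 8 fits without 1 array. NRPB9B, an RNA polymerase II subunit, fell by 1.3 ± 0.16. Of 29 serine carboxypeptidase-like genes 4 fell and 0 rose, namely scpl46 (-1.7), scpl20 (-1.52), scpl35 (-1.32) and scpl29 (-0.72). The shares over all probe sets were 4.03% lower and 5.64% higher. The median difference of that family was -0.05, and its median level, 4.26, was close to the dim range. HYH, a bZIP factor of light signalling, had values of 3.5, 3.3, 3.6 and 3.4 on the warm dim arrays, against 6.4, 7.2, 4.3 and 5.0 on the cool bright arrays. They did not overlap, but the difference of -2.27, a lower bound in size, was not called (adjusted p = 0.0549).

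On the higher side were 3 of 7 measured co-chaperones of the HSP70 and HSP90 machinery, beside 5.64% called higher over all probe sets. Hop3, which joins HSP70 to HSP90, read 6.6, 5.5, 7.1 and 4.9 on the warm dim arrays, against 3.1, 3.3, 3.4 and 3.3 on the cool bright arrays. All cool bright values lay between 3.1 and 3.4, in the dim range, and the 35S:PAP1 arrays were the higher ones on both warm dim days. The difference was at least 2.75 ± 0.36 (SE, adjusted p = 0.00778). AT5G48570, named FKBP65 in the reference and a prolyl isomerase, read 8.0, 6.8, 7.9 and 5.9 on the warm dim arrays, against 3.5, 3.6, 5.3 and 5.3 on the cool bright arrays. Its smallest warm dim value, the empty vector on day 7, was 0.6 above the largest cool bright value, and the difference was at least 2.73 ± 0.58 (SE, adjusted p = 0.0304). It was called in 2 of the 8 fits without 1 array, against 8 for Hop3. Fes1C, of a family of exchange factors for HSP70, rose by 1.82 ± 0.33. None of the 7 was called lower in limma, and the median was 1.27, in a list assembled after values were seen. Hop3 and Fes1C, but not AT5G48570, stayed called with the day block. Fes1B was at 1.27 and was not called (adjusted p = 0.0818). Hop1, Hop2 and Fes1A, their relatives, lay between -0.30 and 0.33 and were not called. The 4 heat shock and chaperonin genes named singly by the probe table, Hsp70-2 among them at -0.70, were not called either.

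Of the measured enzymes of leucine breakdown, IVD, MCCB and ETFQO rose in warm dim growth. IVD, isovaleryl-CoA dehydrogenase, read 7.8, 8.6, 7.1 and 7.9 on the warm dim arrays, against 6.3, 6.0, 6.4 and 6.5 on the cool bright arrays. The lowest warm dim array lay 0.6 above the highest cool bright one, and the difference was 1.55 ± 0.28 (SE, adjusted p = 0.019). MCCB, a subunit of methylcrotonyl-CoA carboxylase, rose by 1.43 ± 0.29, and ETFQO, which passes the electrons of these reactions to ubiquinone, by 1.4 ± 0.27. Of 11 genes of sugar starvation and branched-chain amino acid breakdown, 3 rose and 0 fell, with a median of 1.4. Over all probe sets 5.64% were called higher. MCCA, the other subunit of the carboxylase, had a difference of 2.17 and AKINBETA1, a subunit of the SnRK1 energy-sensing kinase, of 2.67. Neither was called, at adjusted p of 0.0568 and 0.0537. With day as a random block 0 of the 3 stayed called, and without 1 array at a time IVD was called in 6 and MCCB and ETFQO in 3 of 8 fits. All 11 autophagy genes had positive values, with a median of 0.68, and 0 were called in limma. ATG3, the enzyme that helps attach ATG8 to lipid, was the 1 member without overlap, at 0.70 (adjusted p = 0.0558).

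PGRL1B, a thylakoid protein of cyclic electron flow around photosystem I, was among the genes chosen by gap and read 8.9, 8.9, 9.1 and 8.9 on the warm dim arrays, against 7.1, 7.0, 7.3 and 7.1 on the cool bright arrays. The warm dim arrays spanned 0.2 and the cool bright arrays 0.3. The difference was 1.82 ± 0.10 (SE, adjusted p = 0.0013). NdhS, a subunit of the chloroplast NDH complex that serves another route of cyclic flow, rose by 1.2 ± 0.20. It was the 1 gene called higher of 32 NDH and photosystem assembly genes, with 0 lower and a median of -0.14. Of 69 plastid-encoded genes, psbL (0.60) and rps14 (0.82) rose, and rps19 (-0.78) and rpoC2 (-1.0) fell. The median of these 69 was -0.15, and with day as a random block 0 of the 4 stayed called. As shares of the 69, the plastid counts are below those over all probe sets, 5.64% higher and 4.03% lower. LHCB4.2, an antenna protein of photosystem II, was higher without overlap at 1.98 and LHCB4.3 was at -2.1. Neither was called (adjusted p = 0.107 and 0.069).

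Wall, cytoskeleton and hormone genes rose in small numbers. EXPA8, an alpha-expansin that loosens cell walls, read 8.9, 9.1, 8.5 and 8.8 on the warm dim arrays, against 5.2, 6.0, 7.0 and 6.2 on the cool bright arrays. Every warm dim array was at least 1.5 above every cool bright array, and the difference was 2.73 ± 0.36 (SE, adjusted p = 0.00807). Of 10 alpha-expansins 1 was called higher and 1, EXPA9, lower, beside 5.64% higher and 4.03% lower over all probe sets. TUA6 and TUB6, an alpha- and a beta-tubulin, rose by 0.70 ± 0.13 and 0.82 ± 0.16, 2 of 7 tubulins. IAA18 and IAA29, auxin-response repressors, rose by 0.90 ± 0.17 and at least 0.65 ± 0.16, 2 of 7 measured. Of 22 trichome birefringence-like wall acetylation genes 3 rose, led by TBL38 at 1.43, and 0 fell. IAA29 and TBL38 were called in 1 of the 8 fits without 1 array, IAA18 in 3, and TUA6 and TUB6 in 4. The day block left 0 of the tubulin, auxin repressor and wall acetylation calls. CML30, a calmodulin-like protein, rose by 1.93 ± 0.30. PDF1.4, a plant defensin gene, read 7.3, 7.6, 5.8 and 6.2 on the warm dim arrays, against 3.1, 3.6, 4.0 and 3.9 on the cool bright arrays. All 4 cool bright values were in the dim range and the difference was at least 3.08 ± 0.43 (SE, adjusted p = 0.0093).

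Protein turnover genes included PUB25, a U-box ubiquitin ligase known to mark the cold-pathway repressor MYB15 for breakdown. It read 7.4, 6.7, 6.6 and 7.1 on the warm dim arrays, against 5.8, 5.5, 5.1 and 4.9 on the cool bright arrays. The regimes separated by 0.8, and the difference was 1.62 ± 0.25 (SE, adjusted p = 0.0128). PUB26, its closest partner in that role, was at 0.80 without overlap and was not called (adjusted p = 0.0635). Of 12 ubiquitin-conjugating enzymes, UBC28 and UBC22 rose by 1.45 ± 0.20 and 0.80 ± 0.12, and UBC18 fell by 0.93 ± 0.14. GSTU18 rose by 1.57 ± 0.32 and GSTU20 fell by 1.8 ± 0.28, 1 each way among 11 tau-class glutathione transferases, and with day as a random block 0 of the 2 stayed called. Of 43 UDP-glycosyltransferases 3 rose and 2 fell, led by UGT85A5 at 1.32 and UGT76E11 at -1.35. The day block left 2 of these 5 called, UGT85A5 among them but not UGT76E11. Over all probe sets 5.64% were called higher and 4.03% lower, and the glycosyltransferase counts are near these shares.

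**Figure D3:**
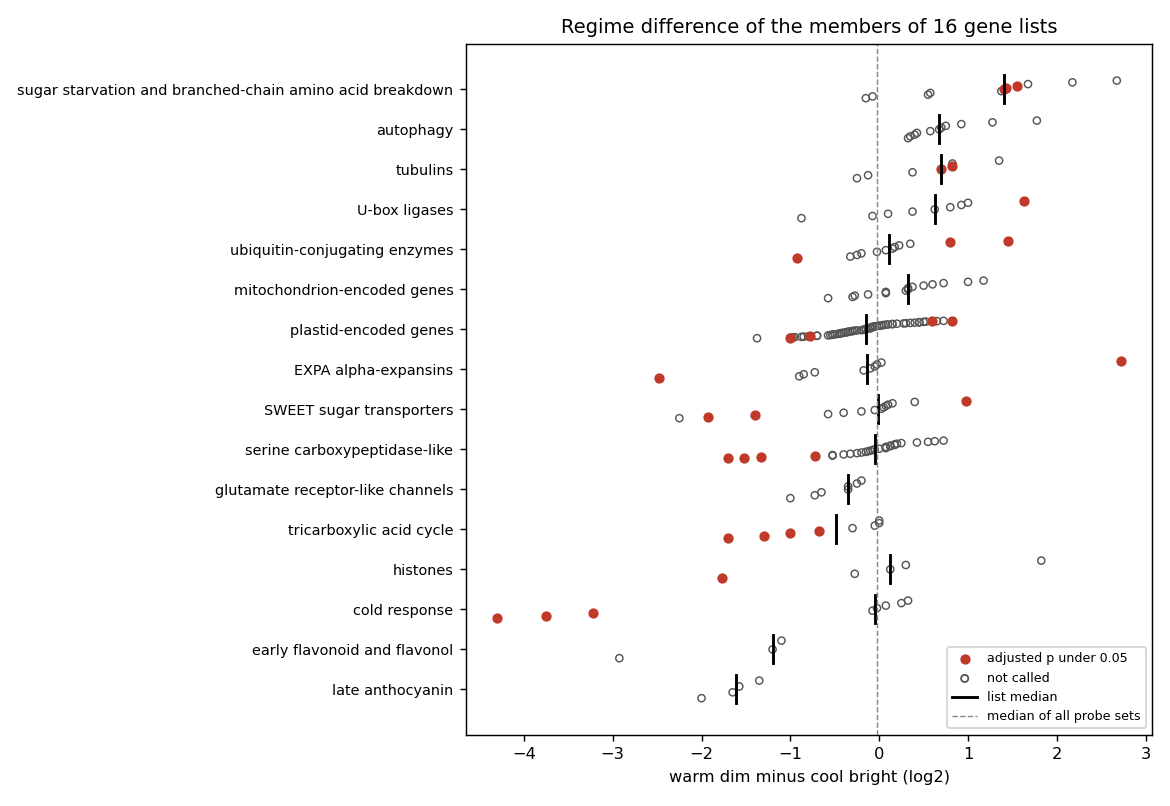
Warm dim minus cool bright difference (log2) of each measured member of 16 gene lists, filled red where the adjusted p was under 0.05. Black bars are list medians and the dashed line is the median of all probe sets, -0.025. The cold-response list spans -4.3 to 0.33, with 3 red points at its low end.

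Pigment genes stayed short of the threshold. All 4 late anthocyanin genes and all 3 early flavonoid genes measured had negative values, with medians of -1.61 and -1.2, and 0 of either list was called in limma. DFR, which makes the first anthocyanin precursor, read 10.7, 4.4, 12.4 and 3.8 on the warm dim arrays, against 12.6, 8.0, 11.6 and 7.1 on the cool bright arrays, so the regimes overlapped. Its difference was -2.0 ± 0.68 (adjusted p = 0.112), a lower bound in size. CHIL, a helper protein of chalcone synthesis, had the largest of the 7 at -2.92 (adjusted p = 0.113). Of the 59 gene lists examined, 25 had no member called, among them 7 WRKY transcription factors, with a median of 0.03.

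The rule for named genes also took loci that the reference table gives no symbol, and these are described by their values alone. AT4G19430 had the largest difference of those the rule took. It read 9.7, 9.9, 9.1 and 9.8 on the warm dim arrays, against 4.4, 4.9, 3.8 and 4.2 on the cool bright arrays. No warm dim value was within 4.2 of a cool bright one, and the difference was at least 5.3 ± 0.22 (SE, adjusted p = 0.000334). AT1G62510 followed with 8.8, 9.2, 6.9 and 8.5 on the warm dim arrays, against 4.0, 3.8, 3.7 and 3.8 on the cool bright arrays. Every cool bright value was dim, and the difference was at least 4.53 ± 0.43 (SE, adjusted p = 0.0036). AT2G05540 rose by 3.45 ± 0.28, and CP5, which does have a symbol, by 2.92 ± 0.29. On the lower side AT2G36885 fell by 2.98 ± 0.28, AT1G06690 by 2.85 ± 0.42 and AT2G16890 by at least 3.02 ± 0.39. The 21 genes chosen on the higher side had differences of 1.82 to 5.3, and the sizes of the 21 on the lower side were 2.0 to 4.3. With day as a random block, 17 and 17 of them stayed called, and 16 and 17 were called in all 8 fits without 1 array. On the higher side 3 probe sets with no listed gene had differences of 5.53, 4.53 and 4.2, and on the lower side 3 had -7.7, -6.75 and -4.55.

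The day 1 arrays, which share the light of cool bright growth but not its temperature, were not used to choose the genes. Among the 1877 higher probe sets, both day 1 arrays lay in or beyond the cool bright range for 605 (32.2%) and in or beyond the warm dim range for 330 (17.6%). Among the 1564 lower probe sets the counts were 776 (49.6%) for the cool bright range and 163 (10.4%) for the warm dim range. Named genes fell on either side. HTB2 stood near cool bright growth on day 1, as above, while LTI30 read 6.9 and 7.1, COR15A 8.9 and 9.7 and BETA-VPE 4.6 and 5.3, all within their warm dim ranges or below. PGRL1B at 8.1 and 8.2 and APL3 at 6.5 and 6.4 were between the regimes. Day 1 was also the earliest harvest, so age and light cannot be told apart here.

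**Figure D4:**
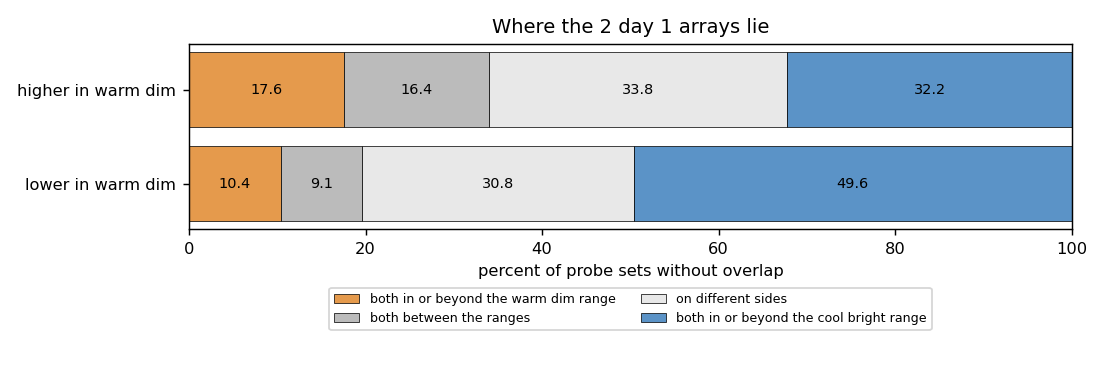
Percent of non-overlapping probe sets, higher (top) or lower (bottom) in warm dim growth, by where both day 1 arrays lay. Both arrays were in or beyond the cool bright range for 32.2% and 49.6%, and in or beyond the warm dim range for 17.6% and 10.4%.

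Within cool bright growth, the mean of day 8 was farther from the warm dim mean than that of day 12 for 1109 of the higher probe sets, against 643 the other way. For the lower probe sets the counts were 976 and 506. AT5G40450 was an example and read 9.6, 9.3, 9.7 and 9.9 on the warm dim arrays, against 5.0, 4.6, 7.4 and 7.6 on the cool bright arrays. Its cool bright values were lowest on day 8. CP5, COR15A and COR15B showed the same order, with day 12 closer to the warm dim values. APL3 did not, with its day 12 mean farther from warm dim growth. Within warm dim growth, the day 2 mean was the farther from cool bright growth for 962 higher probe sets, against 779 for day 7. For the lower ones these counts were 872 and 535.

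Whether the lines differed in their regime difference was tested as an interaction. No probe set was called for the line by regime interaction in limma (0 of 22746, 0.0%, with 413 at an unadjusted p under 0.05). Among the 6 genes the rule took for it, none of them called, AT1G54020 read 6.0, 4.7, 5.9 and 4.7 on the warm dim arrays, against 3.6, 3.7, 3.6 and 4.0 on the cool bright arrays. The warm dim values of 35S:PAP1 were the higher ones, and the regime difference was at least 2.35 for 35S:PAP1 plants and at least 0.85 for control plants. DFR, named here as a list member, had a regime difference of -0.55 for 35S:PAP1 plants and -3.45 for control plants, whose dim day 7 value makes it a lower bound in size. The test of that difference gave an interaction of at least 2.9 ± 0.92 with an unadjusted p of 0.0193 and an adjusted p of 1. Hop3, another list member, had an interaction of 1.7 ± 0.38 with a smaller unadjusted p, 0.004, in limma. It too was not called, and its cool bright values were all dim.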

How the data were processed

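Per the submitters' processing notes, the authors used RMA, and the deposited table holds its log2 expression values, rounded to 1 decimal. RMA adjusts for background, gives all arrays the same distribution and combines the probes of each set. The sources used here name no version or settings for it. There is no detection call, and precision is set by how many arrays there are. The RNA was labelled with biotin, per the labels.

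The 64 array controls among 22810 probe sets were not tested. The probe table pairs 13513 of the others with 1 gene and 503 with several, and 8730 are not in it and stay unnamed. A gene with several probe sets was read from the one with the highest mean. All per-sample columns were used (0 unused).

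The difference between regimes was fitted with limma 3.58.1 (lmFit and eBayes) in R 4.3.3 on 8 arrays, with line as a term (5 residual degrees of freedom), and adjusted by Benjamini-Hochberg. The interaction model had 4 residual degrees of freedom. The fit was also run on simulated data, with noise drawn independently for each array. In the data, arrays of a day had an estimated correlation of 0.44, which that run does not cover. The limit for dim values, 4.1, is the highest value of BAN, EXPA7 and EXPA18. Named genes were, among probe sets naming 1 gene that were called and did not overlap, the 15 per direction with the largest difference and then the 6 per direction with the widest gap, 3 per direction for the interaction, and any member of 59 gene lists. Members and lists were chosen with earlier results of these data known, and 4 of the lists were added after values were seen. Alternatives changed the line term, centring, a filter on the mean, the spread prior, day as a block, and the arrays used. A planned description of promoter motifs was not run because no promoter sequences were given.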

Additional observations from a re-analysis of the deposited data

Results flagged for a closer look

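In 202 groups of 4 arrays (each gene named in the text, in each of 2 regimes), 11 had a highest or lowest array that stood apart from the other 3 by more than Dixon's critical value for 4 samples. Chance gives about 1 in 20 such groups, and deposited values in steps of 0.1 make ties common. Fes1C on the 35S:PAP1 day 7 array was apart, at 7.5, 0.6 away from the nearest of the other 3 warm dim arrays. For IDH-V, the 35S:PAP1 day 2 array read 8.7, 0.5 away from the nearest of the other 3 warm dim arrays. PGRL1B on the 35S:PAP1 day 7 array was apart, at 9.1, 0.2 away from the nearest of the other 3 warm dim arrays. For PUB26, the 35S:PAP1 day 2 array read 7.5, 0.7 away from the nearest of the other 3 warm dim arrays. SAG29 on the empty vector day 2 array was apart, at 6.1, 1.4 away from the nearest of the other 3 warm dim arrays. For psbL, the empty vector day 2 array read 9.4, 0.1 away from the nearest of the other 3 warm dim arrays. scpl29 on the 35S:PAP1 day 7 array was apart, at 8.5, 0.4 away from the nearest of the other 3 warm dim arrays. AT2G36885 on the 35S:PAP1 day 8 array was apart, at 9.4, 0.8 away from the nearest of the other 3 cool bright arrays. For ATHM2, the empty vector day 8 array read 11.1, 0.3 away from the nearest of the other 3 cool bright arrays. LTI30 on the 35S:PAP1 day 12 array was apart, at 10.2, 0.6 away from the nearest of the other 3 cool bright arrays. For psbL, the 35S:PAP1 day 12 array read 8.8, 0.1 away from the nearest of the other 3 cool bright arrays.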

How the results depend on the processing

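The count of called probe sets was 2198, and that of non-overlapping probe sets 3441. Calls stayed within 1.5 times of that count without the line term (2678), with arrays centred on their medians (2246), with a mean of at least 5 (2277), with all 10 arrays (3004), with a trended spread prior (1895) and without day 8 (2258). Calls came to 594 with day as a random block, 380 without day 7, 4536 without day 12, 16 in the empty vector line alone and 12 in 35S:PAP1 alone. In limma there were 0 calls on day means (3310 at an unadjusted p under 0.05), 0 without day 2 (3777) and 0 without the 35S:PAP1 day 2 and day 7 arrays (3783). Leaving out 1 array gave 581 (without the empty vector on day 7) to 2176 calls. It gave 670 without the empty vector on day 2, 853 without 35S:PAP1 on day 2, 1439 without the empty vector on day 8 and 1116 without 35S:PAP1 on day 8. Smaller sets of arrays also have fewer residual degrees of freedom. Of the calls 58.3% were higher in warm dim growth, against 48.1% after centring, where 1525 probe sets were higher and 1984 lower without overlap. Centring placed the median of all probe sets at -0.075. Fewer arrays overlap less by construction: non-overlapping probe sets came to 9653 on day means, 9180 in the empty vector alone, 7986 in 35S:PAP1 alone, 5627 without day 2, 6830 without day 7, 6443 without day 8, 8934 without day 12, 6972 without the 35S:PAP1 day 2 and day 7 arrays, and 3857 to 5288 without 1 array. The interaction had 0 calls in each of its settings, with 248 to 917 at an unadjusted p under 0.05. Over the genes named in the text, 2211 gene and setting pairs were examined, of which 0 reversed a called direction, 628 lost the call and 56 gained one. Promoter motifs were not run. Genes near or under 4.1 have differences that the dim range limits.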
